A study of Mus musculus with 10 samples.

Results

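The mitochondrial genome of the mouse carries 37 genes, and all 37 had a row in the expression table of light-damaged and control retinas analysed here. They were chosen as the rows on chromosome MT, 37 of 54532 genes in all, and comprise 13 protein-coding genes, 2 rRNA genes and 22 tRNA genes. The mice were BALB/c, an albino strain sensitive to light, and 2 months old. Every mouse was kept in the dark for 12 h and then spent 1 day either under normal light of 200 lux (NL, 5 retinas) or under light of 15000 lux (LD, light damage, 5 retinas). Sex and the origin of each retina within or between litters are not given in the labels, so p-values measure the spread between these retinas. Values are listed below in the order NL-1, NL-4, NL-5, NL-7, NL-8 and LD-1, LD-4, LD-6, LD-7, LD-8, which are the names in the labels.

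Mitochondrial DNA is a small circular genome, present in many copies per cell. Its genes are transcribed from both strands into long precursor RNAs, from which the tRNAs that lie between the other genes are cut out, and this cutting releases the rRNAs and mRNAs. The proteins are core subunits of the respiratory chain and of ATP synthase, whose remaining subunits are made from nuclear genes. Photoreceptors pack mitochondria densely into their inner segments and use much of the energy of the retina. Standard libraries of polyadenylated RNA hold those mitochondrial mRNAs that carry short poly(A) tails, which in animals are most but not all of them, and hold tRNAs poorly.

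Levels are FPKM, fragment counts divided by gene length and by library size, as deposited. The 5 NL libraries held 21343389 to 26832535 reads and the 5 LD libraries 18965090 to 23378090. Rod markers were high in all NL retinas, with a summed level of 9028 to 10991 FPKM over 10 genes. After LD the sum was 1405 to 2760 FPKM, and 10 of 10 rod markers and 5 of 5 cone markers were called lower, while 3 of 5 microglia markers were called higher and 0 of 5 markers of the pigment epithelium were called. In bulk tissue, fewer cells of a type and less RNA per cell cannot be told apart. In 3 pairs of retinas (NL-5 with NL-7, LD-1 with LD-7, LD-4 with LD-6) the reads per gene lay much closer together than in the other pairs within a group, with a chi-square per gene of 2.71, 3.41 and 2.52 against 10.9 to 38.5. These pairs differed by more than sampling noise, which does not show that their retinas are independent. Each retina was kept as a sample, and the result with each pair averaged is given where it changes a call.

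Part of the mitochondrial genome cannot be read cleanly in these data, because chromosome 1 holds a nearly perfect copy of it. Between 24611535 and 24616197 of chromosome 1 (GRCm38, minus strand), the annotation lists 7 unprocessed pseudogenes: Gm29216 (a copy of the end of mt-Co1), Gm28661 (mt-Co2), Gm10925 (mt-Atp6), Gm28437 (mt-Co3), Gm28438 (mt-Nd3), Gm10222 (mt-Nd4l) and Gm28439 (the start of mt-Nd4). Together they match 4140 bases of chromosome MT, between positions 6390 and 11042, with 2 mismatches. The distances between neighbouring copies equal those on chromosome MT, except that mt-Nd3 and mt-Nd4l are 73 bases apart on MT and 74 on chromosome 1. Of all windows of 150 bases, the read length given in the study's methods, 99.44% in mt-Co2, 99.44% in mt-Atp6, 99.84% in mt-Co3, 96.98% in mt-Nd3 and 97.97% in mt-Nd4l were found letter for letter in another annotated transcript. The share was 59.15% in mt-Nd4 and 23.64% in mt-Co1, and 0% in mt-Rnr1, mt-Rnr2, mt-Nd1, mt-Nd2, mt-Atp8, mt-Nd5, mt-Nd6 and mt-Cytb. Less similar copies were annotated on other chromosomes. Among them, Gm13340 on chromosome 2 aligned to all 1545 bases of mt-Co1 (97.61% identity) and Gm13339 to 510 bases of mt-Nd2 (96.67%). Gm4076 aligned to 954 bases of mt-Nd5 (95.18%), Gm11408 to all of mt-Nd6 (93.64%) and Gm11410 to 99.83% of mt-Cytb (92.91%).

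The following lines show how little separates a gene from its copy. They give the first 23 bases of mt-Nd3 and of Gm28438, with the base that differs in capitals (T3C, counted from the first base of mt-Nd3, at MT position 9461), and then the last 60 bases of mt-Co2 beside the end of Gm28661, with the bases past the end of the annotated copy in capitals. All sequences printed here are from the GENCODE M21 transcripts of GRCm38.
mt-Nd3: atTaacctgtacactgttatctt
Gm28438: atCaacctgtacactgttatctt
mt-Co2: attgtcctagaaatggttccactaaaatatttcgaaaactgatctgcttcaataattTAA
Gm28661: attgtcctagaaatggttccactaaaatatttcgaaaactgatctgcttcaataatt

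Reads on the 37 genes made up 2.02% ± 0.121 (SD, n = 5) of all reads in NL retinas, with values of 1.91%, 2.11%, 2.16%, 2.05% and 1.89%. In LD retinas the share was 1.90% ± 0.291 (SD, n = 5), with values of 1.69%, 2.22%, 2.09%, 1.52% and 2.00%. LD-1 and LD-7 lay below all NL retinas and LD-4 above all of them, so the groups overlapped, and no test was made on this sum. The difference of the means, LD minus NL, was -0.120 percentage points, and it was 0.0799 without LD-1 and LD-7, a choice made after the data were seen. As a share of summed FPKM, where each gene counts per length, the genes held 6.48% to 7.12% in NL and 5.21% to 7.24% in LD.

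The make-up of these reads differed between the groups, which is given as a description with no test. The 2 rRNA genes took 3.83% to 5.06% of all mitochondrial reads in NL retinas and 5.62% to 5.90% in LD retinas, and the ranges did not overlap. Protein-coding genes took 94.8% to 96.0% in NL and 93.9% to 94.2% in LD. With the rRNA genes they make up nearly all mitochondrial reads, so this is the same observation as for the rRNA genes. The 22 tRNA genes took 0.0737% to 0.189% in NL and 0.169% to 0.222% in LD.

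Of the 37 genes, 31 reached 0.1 FPKM in at least 5 retinas and were tested, comprising 13 protein-coding, 2 rRNA and 16 tRNA genes. By limma on log2(FPKM + 0.1), with adjustment over all 24508 genes tested, 1 gene (mt-Nd6) was called lower after LD and 1 (mt-Tt, with at most 6 reads in any retina) higher at an adjusted p under 0.05. Across all genes tested, 13.4% were called lower and 14.5% higher by the same rule. At the thresholds named in the study's text, an adjusted p under 0.01 and a change over 2-fold, 0 of the 31 were called, beside 6.51% of all genes. An unadjusted p under 0.05 by limma was reached by 7 of the 31, 3 protein-coding and 4 tRNA genes. All genes called at the adjusted threshold pass this one too, so its shares of all genes are no smaller than 13.4% lower and 14.5% higher. The count of 7 is therefore no result about the members. Log2 fold changes of the 31 had a median of 0.23 and ran from -0.44 to 3.00, beside a median of -0.01 over all genes.

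**Figure D1:**
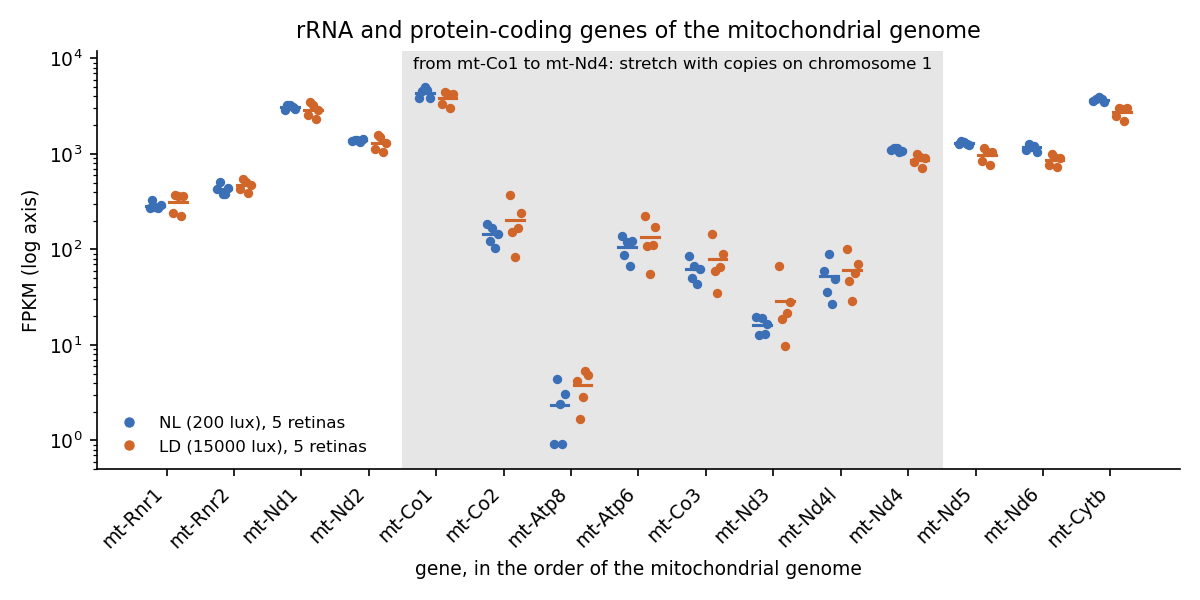
FPKM (log axis) of the 2 rRNA and 13 protein-coding genes in the order of the mitochondrial genome, 1 point per retina, with a bar at the mean of each group. The grey band spans mt-Co1 to mt-Nd4, where copies lie on chromosome 1: the 6 genes inside it sit at 0.92 to 372 FPKM, while mt-Co1, mt-Nd4 and the 5 protein-coding genes outside the band sit at 711 FPKM or more.

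The rRNA genes come first on the plus strand. mt-Rnr1 encodes the 12S rRNA of the small subunit of the mitochondrial ribosome and mt-Rnr2 the 16S rRNA of the large subunit. mt-Rnr1 (MT 70 to 1024) stood at 271, 325, 274, 273 and 294 FPKM in NL retinas and at 242, 372, 361, 225 and 359 FPKM in LD retinas. The LD values lay on both sides of the NL values, with a log2 fold change of 0.09 ± 0.15 (SE) and an adjusted p of 0.725. mt-Rnr2 (MT 1094 to 2675) stood at 428, 503, 384, 377 and 442 FPKM in NL and at 430, 551, 510, 392 and 472 FPKM in LD. It too overlapped between groups, with a log2 fold change of 0.14 ± 0.12 and an adjusted p of 0.435. Both rRNAs stood far below the most abundant mitochondrial mRNAs per length, which was the case in all 10 retinas.

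mt-Nd1 and mt-Nd2 follow the rRNA genes and encode subunits of the membrane arm of complex I, the NADH dehydrogenase at which electrons enter the respiratory chain. mt-Nd1 (MT 2751 to 3707) stood at 2879, 3207, 3279, 3097 and 2913 FPKM in NL and at 2539, 3494, 3280, 2334 and 2896 FPKM in LD. LD-4 was the highest retina of all and LD-7 the lowest, and the log2 fold change was -0.09 ± 0.23 (adjusted p = 0.802). mt-Nd2 (MT 3914 to 4951) stood at 1368, 1387, 1407, 1321 and 1418 FPKM in NL and at 1129, 1574, 1487, 1048 and 1309 FPKM in LD. Its log2 fold change was -0.09 ± 0.16 (adjusted p = 0.713), with LD-4 and LD-6 above and LD-1, LD-7 and LD-8 below all NL retinas.

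mt-Co1 encodes the catalytic subunit of cytochrome c oxidase, complex IV, which passes electrons to oxygen. It had the highest FPKM of all 54532 genes in each of the 10 retinas, although 483 of its 1545 bases are shared with Gm29216. Its values were 3871, 4530, 5017, 4648 and 3798 FPKM in NL and 3354, 4413, 4240, 3034 and 4234 FPKM in LD. LD-1 and LD-7 were the lowest, the groups overlapped, and the log2 fold change was -0.19 ± 0.28 (adjusted p = 0.663). If all its reads came from the 1062 bases that have no copy on chromosome 1, its level there would be 6361 ± 762 FPKM in NL and 5608 ± 899 FPKM in LD (SD, n = 5).

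The 4 protein-coding genes that end the mitochondrial genome were lower in every LD retina than in any NL retina. These are mt-Nd4, mt-Nd5 and mt-Nd6, subunits of complex I, and mt-Cytb, cytochrome b of complex III, which hands electrons on to cytochrome c. Across all genes tested, 10.6% had all 5 LD retinas below all 5 NL retinas. The 4 of 31 mitochondrial genes lie near that share, and their count is no result about the members. All 5 LD retinas lay above all 5 NL retinas in 11.8% of all genes tested and in 0 of the 31 mitochondrial genes.

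mt-Nd4 (MT 10167 to 11544) stood at 1090, 1142, 1147, 1056 and 1061 FPKM in NL and at 812, 999, 918, 711 and 902 FPKM in LD. The log2 fold change was -0.35 ± 0.13 with an adjusted p of 0.0640, and the first 876 of its 1378 bases are shared with Gm28439. Counted on the 502 bases without a copy, its level would be 3018 ± 120 FPKM in NL and 2384 ± 303 FPKM in LD (SD, n = 5). These are upper values, since they assign every read to the bases without a copy.

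mt-Nd5 (MT 11742 to 13565) is the longest of the 37 genes, with 1824 bases and no exact 150-base match elsewhere. It stood at 1257, 1373, 1346, 1256 and 1236 FPKM in NL and at 836, 1150, 1050, 772 and 1047 FPKM in LD. All LD retinas were lower, with a log2 fold change of -0.43 ± 0.15 and an adjusted p of 0.0524, just over the threshold.

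mt-Nd6 (MT 13552 to 14070) is the one protein-coding gene on the minus strand. Its values were 1108, 1274, 1193, 1220 and 1053 FPKM in NL and 771, 999, 924, 729 and 909 FPKM in LD. It fell by 0.44 on the log2 scale, with a standard error of 0.13 and an adjusted p of 0.0314. The kit named in the labels does not mark the strand, so these reads cannot be told from RNA of the other strand, and the gene shares 14 bases with mt-Nd5. Without NL-1, NL-4, NL-5, NL-7, LD-1 or LD-7 it was not called (adjusted p of 0.0515 to 0.0696 by limma), while it remained called without NL-8, LD-4, LD-6 or LD-8.

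mt-Cytb (MT 14145 to 15288) ranked among the 3 highest of all genes in every retina. It stood at 3552, 3765, 3955, 3746 and 3469 FPKM in NL and at 2494, 3050, 2923, 2218 and 2989 FPKM in LD. The log2 fold change was the most negative of the 4, at -0.44 ± 0.23, and its adjusted p was 0.181.

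The count of calls among these 4 genes depends on the model and on the scaling. All 4 were called lower by limma without the trend of variance on level, by limma-voom on the recovered reads, with a pseudocount of 0.01, and with a filter of at least 1 FPKM. Deposited values carry a factor per retina, 0.951 to 0.968 in NL and 1.04 to 1.07 in LD, and with plain library sizes 0 of them were called and the median log2 fold change of all genes was 0.11 in place of -0.01. With each close pair of retinas averaged, 0 were called. Quantile normalization, which compares the highest genes by rank alone, turned the log2 fold change of mt-Nd4, mt-Nd5 and mt-Nd6 to 0.26, 0.44 and 0.25 and that of mt-Cytb to 0.00, with 0 of the 4 called.

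Relative to the median of all genes, the changes were alike with and without the factor per retina. This had to be so, since a factor moves all genes of a retina together, and it is no check of the decrease. mt-Nd4 lay -0.34 from that median with the deposited FPKM and -0.32 without the factor. mt-Nd5 lay at -0.42 and -0.40, mt-Nd6 at -0.43 and -0.42, and mt-Cytb at -0.43 and -0.42. By contrast mt-Nd1 lay at -0.08 and -0.07, mt-Nd2 at -0.08 and -0.07, and mt-Rnr2 at 0.15 and 0.16.

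**Figure D2:**
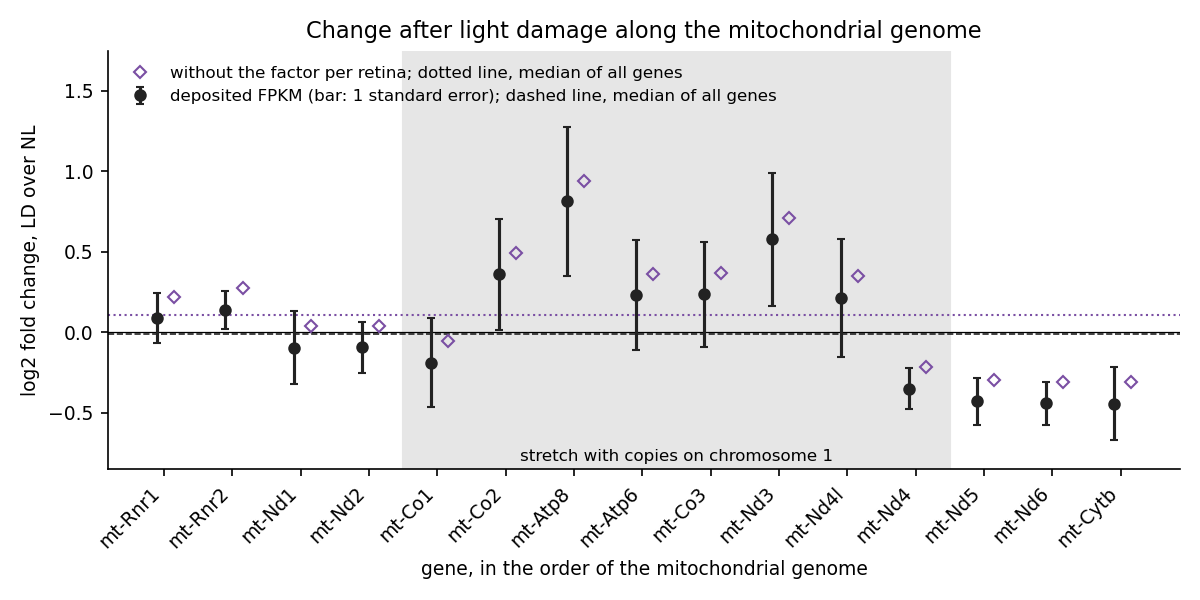
Log2 fold change, LD over NL, of the 15 rRNA and protein-coding genes in genome order. Filled circles are the deposited FPKM with 1 standard error, with the median of all genes as a dashed line (-0.01). Open diamonds are the values without the factor per retina, with the median as a dotted line (0.11). mt-Nd4, mt-Nd5, mt-Nd6 and mt-Cytb lie below both lines, at -0.35 to -0.44 (circles) and -0.22 to -0.31 (diamonds).

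Setting genes against each other within a retina removes the scaling and the depth altogether. This was done for the 9 rRNA and protein-coding genes that lie outside the copied stretch or reach beyond it, which leaves out the 6 inside it, mt-Atp8 among them: mt-Rnr1, mt-Rnr2, mt-Nd1, mt-Nd2 and mt-Co1 before the middle of the copied stretch, and mt-Nd4, mt-Nd5, mt-Nd6 and mt-Cytb after it. The division was made after the values had been seen, and is reported as a description. Of 36 ratios between pairs of these genes, 18 were lower in all LD retinas than in all NL retinas and 0 were higher in all. All 18 were among the 20 ratios of a gene after the stretch to a gene before it, and the 2 exceptions were mt-Nd4 to mt-Co1 and mt-Nd6 to mt-Co1. Of the 16 ratios within either set, 0 separated the groups. A share over all genes tested was computed for ratios to mt-Nd1 alone, where 3.54% were lower in all LD retinas. For the other denominators there is no such share, so the count of 18 has none to be set against.

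The ratio of mt-Cytb to mt-Nd1 is given in every retina, since these were the genes with the highest FPKM in either set among those outside the copied stretch. It was 1.23, 1.17, 1.21, 1.21 and 1.19 in NL retinas and 0.982, 0.873, 0.891, 0.950 and 1.03 in LD retinas. Its mean was 1.20 ± 0.0224 in NL and 0.946 ± 0.0654 in LD (SD, n = 5). LD-1 and LD-7, the retinas with the lowest mitochondrial share, lay within the range of the other LD retinas. mt-Nd5 to mt-Nd1 went from 0.421 ± 0.0128 to 0.334 ± 0.0159, mt-Nd6 to mt-Nd1 from 0.380 ± 0.0168 to 0.300 ± 0.0149, and mt-Nd4 to mt-Nd1 from 0.358 ± 0.0144 to 0.300 ± 0.0169. In contrast, mt-Nd2 to mt-Nd1 was 0.450 ± 0.0286 in NL and 0.450 ± 0.00336 in LD. Over all genes tested, the ratio to mt-Nd1 was lower in all LD retinas than in all NL retinas for 3.54%.

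**Figure D3:**
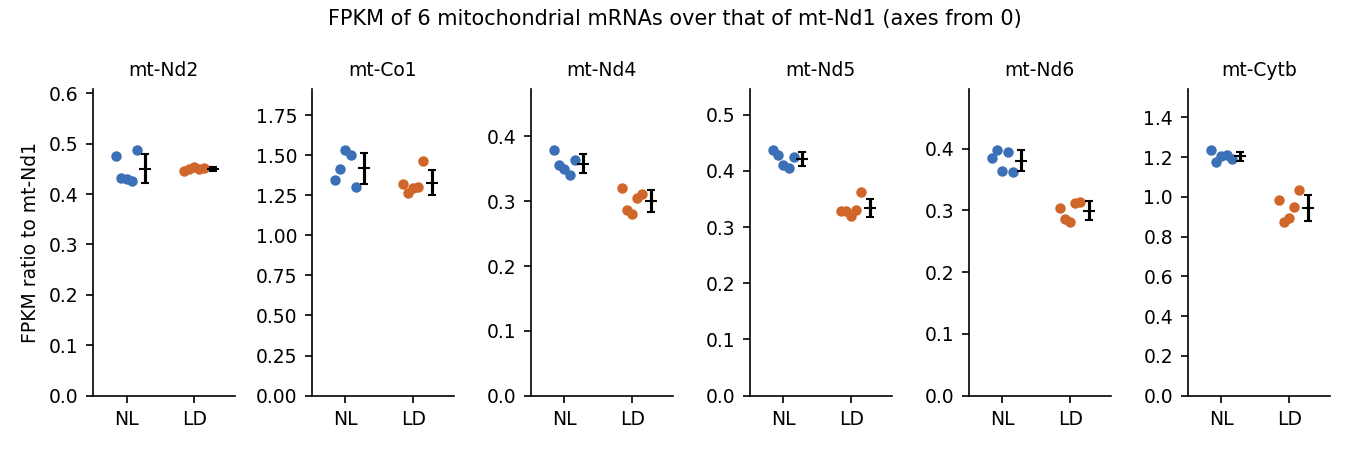
FPKM of mt-Nd2, mt-Co1, mt-Nd4, mt-Nd5, mt-Nd6 and mt-Cytb divided by that of mt-Nd1, 1 point per retina (NL blue, LD orange), with mean and SD beside the points and every axis starting at 0. The LD points lie below all NL points for mt-Nd4, mt-Nd5, mt-Nd6 and mt-Cytb, and overlap them for mt-Nd2 and mt-Co1.

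Along the 9 genes, the log2 fold change went down with the order on the genome (Spearman's rho across genes = -0.967, genes of 1 genome and the same libraries, given as a description). The order mixes strands, since mt-Nd6 lies on the minus strand. The tRNA genes after mt-Nd4, with far fewer reads, did not follow it. mt-Th was at 0.76, mt-Ts2 at 1.21, mt-Tl2 at 0.74, mt-Tt at 3.00 and mt-Tp at 0.13, beside mt-Te at -0.38. GC content was 35.4% to 39.9% in the 5 genes before the middle of the stretch and 34.1% to 39.1% in the 4 after it, and the part of base composition was not tested. The rod marker sum in LD retinas was 2673, 1405, 1503, 2240 and 2760 FPKM. LD-4 and LD-6, with the lowest rod sums, had the lowest ratios of mt-Cytb to mt-Nd1 (0.873 and 0.891), and LD-8, with the highest rod sum, had the highest (1.03). LD-4 and LD-6 are a close pair of retinas. They also had the lowest ratios of mt-Nd4 and mt-Nd6 to mt-Nd1, but that of mt-Nd5 was 0.329 in both LD-1 and LD-4. Among NL retinas the rod sum was lowest in NL-8 (9028 FPKM) and the mt-Cytb ratio in NL-4 (1.17). The part of rod cells in these ratios was not tested.

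The 6 protein-coding genes inside the copied stretch gave other values. They are mt-Co2 and mt-Co3, subunits of cytochrome c oxidase, mt-Atp6 and mt-Atp8, subunits of the membrane part of ATP synthase, and mt-Nd3 and mt-Nd4l, small subunits of complex I. All 6 had a positive log2 fold change and 0 were called, with standard errors of 0.33 to 0.46 on the log2 scale. Together with the tRNA genes between them they held 0.765% to 1.57% of mitochondrial reads in NL and 0.690% to 3.54% in LD.

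mt-Co2 (MT 7013 to 7696) stood at 185, 122, 166, 102 and 144 FPKM in NL and at 372, 152, 83.1, 168 and 243 FPKM in LD. LD-1 was the highest and LD-6 the lowest of all retinas. mt-Co3 (MT 8607 to 9390) stood at 84.9, 50.3, 67.3, 43.5 and 62.1 FPKM in NL and at 144, 59.4, 35.2, 66.0 and 88.6 FPKM in LD. Again LD-1 and LD-6 marked the ends, with a log2 fold change of 0.24 ± 0.33 (adjusted p = 0.648), beside 0.36 ± 0.34 (adjusted p = 0.489) for mt-Co2. Without LD-1 the log2 fold change was 0.10 for mt-Co2 and -0.02 for mt-Co3, and without LD-6 it was 0.64 and 0.49.

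mt-Atp6 (MT 7927 to 8607) stood at 138, 87.0, 118, 66.7 and 121 FPKM in NL and at 224, 107, 55.7, 112 and 171 FPKM in LD, with a log2 fold change of 0.23 ± 0.34 that was 0.0087 without LD-1 and 0.51 without LD-6. mt-Atp8 (MT 7766 to 7969) has no annotated copy of its own, yet it was the lowest of the 13 protein-coding genes, at 0.92, 4.38, 2.41, 0.92 and 3.04 FPKM in NL and 4.22, 1.69, 2.85, 5.38 and 4.85 FPKM in LD. It lies between the copied mt-Co2 and mt-Atp6, and no other annotated transcript held a window of it. The groups overlapped, with 4 to 19 reads in NL and 7 to 25 in LD and a log2 fold change of 0.81 ± 0.46. Its last bases are also those of mt-Atp6, as the end of the gene shows, with the 43 bases that both genes hold in capitals.
mt-Atp8: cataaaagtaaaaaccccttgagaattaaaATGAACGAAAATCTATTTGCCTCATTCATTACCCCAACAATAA

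mt-Nd3 (MT 9459 to 9806) stood at 19.5, 12.6, 19.0, 12.9 and 16.5 FPKM in NL and at 66.9, 18.7, 9.63, 21.6 and 28.4 FPKM in LD. mt-Nd4l (MT 9877 to 10173) stood at 59.8, 36.0, 88.6, 27.0 and 49.1 FPKM in NL and at 99.8, 47.0, 28.9, 56.0 and 70.2 FPKM in LD. LD-1 was the highest retina for both genes. The log2 fold change was 0.58 ± 0.41 for mt-Nd3 and 0.22 ± 0.37 for mt-Nd4l, and without LD-1 it was 0.21 for mt-Nd3 and 0.00499 for mt-Nd4l.

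Reads on mt-Co3, mt-Atp6 and mt-Nd4l went up and down from retina to retina with those on their chromosome 1 copies. mt-Co3 had 1424, 837, 1072, 724 and 1257 reads in NL and 2756, 944, 617, 1178 and 1546 in LD. Its copy Gm28437 had 1153, 702, 929, 625 and 1045 reads in NL and 2342, 937, 594, 1022 and 1135 in LD. LD-1 was the highest and LD-6 the lowest in both series, and Spearman's rho over the 10 retinas was 0.915, given as a description since the same libraries stand behind both. The rho was 0.867 for mt-Atp6 with Gm10925 and 0.830 for mt-Nd4l with Gm10222, and lower for mt-Co2 with Gm28661 (0.515) and mt-Nd3 with Gm28438 (0.442). For mt-Co1 and mt-Nd4, which reach beyond the stretch copied on chromosome 1, it was -0.358 and -0.152. Gm28438 was the one copy of the 7 called, with a log2 fold change of 0.36 ± 0.11 (adjusted p = 0.0308). How reads that match both places were assigned is not given in the sources used here, so for mt-Co2, mt-Atp6, mt-Co3, mt-Nd3 and mt-Nd4l mitochondrial RNA and RNA from chromosome 1 cannot be told apart.

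**Figure D4:**
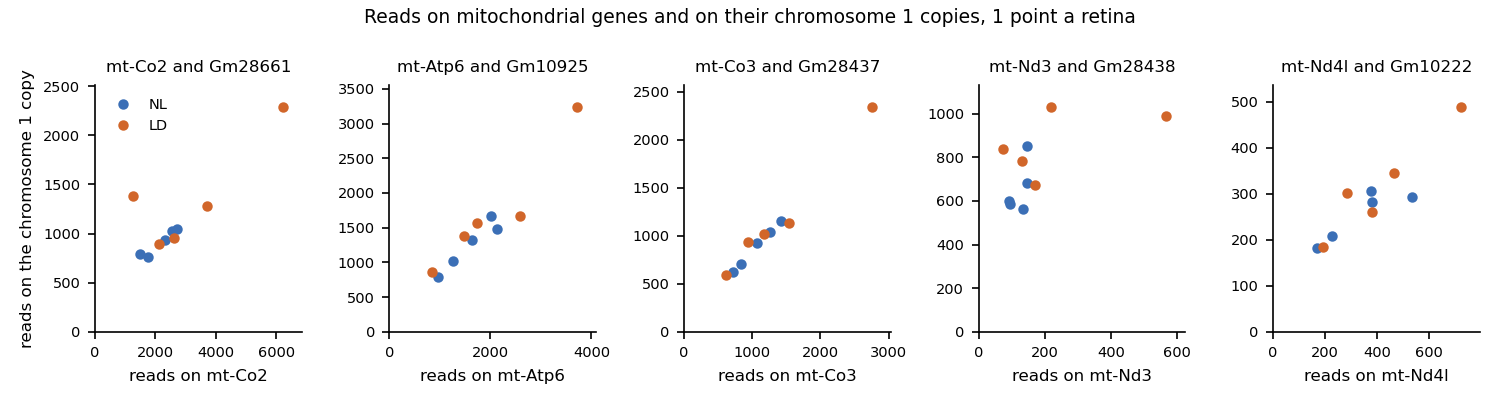
Reads on 5 mitochondrial genes (x axis) and on their copies on chromosome 1 (y axis), 1 point per retina, NL in blue and LD in orange, with all axes starting at 0. LD-1 is the highest point for mt-Co2, mt-Atp6, mt-Co3 and mt-Nd4l, with 6212 reads on mt-Co2 and 2288 on Gm28661.

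tRNA genes of the mitochondrial genome are 59 to 75 bases long, shorter than a read of 150 bases, so a read counted on one also covers other sequence or comes from a short fragment. Of the 22 genes, 2 (mt-Tf and mt-Tr) had no read in any retina, where a count of 0 allows up to 3 reads per retina by counting error alone. Another 4 (mt-Ts1, mt-Td, mt-Tk and mt-Tg) had at most 2 reads and were not tested. Of the 6 untested genes, 5 lie inside the copied stretch and mt-Tf at the start of the genome. Among the 16 tested, 14 had a positive and 2 (mt-Tq and mt-Te) a negative log2 fold change, with a median of 0.70. With few reads the sign can come from the pseudocount. mt-Ta counts as positive (0.22), yet its mean was 0.686 FPKM in NL and 0.506 in LD. Of the 10 genes with a mean of at least 10 reads, 9 were positive and 1 negative, with a median of 0.58. In 0 of the 16 did the groups separate.

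The 5 tRNA genes with the most reads overlapped between groups. mt-Tp (tRNA-Pro, minus strand) had 259, 218, 217, 165 and 299 reads in NL and 271, 271, 292, 259 and 192 in LD, with a log2 fold change of 0.13 ± 0.14. mt-Tl1, which encodes the tRNA-Leu that joins mt-Rnr2 to mt-Nd1 in the precursor, had 83, 79, 52, 47 and 81 reads in NL and 89, 104, 120, 99 and 73 in LD. At 29.5 to 51.8 FPKM in NL and 43.7 to 71.5 FPKM in LD its log2 fold change was 0.49 ± 0.18, with an adjusted p of 0.0691. mt-Tn (tRNA-Asn) had 72, 37, 72, 31 and 140 reads in NL and 164, 96, 116, 61 and 110 in LD (log2 fold change 0.74 ± 0.36). mt-Tc (tRNA-Cys) had 74, 38, 61, 14 and 102 reads in NL and 109, 72, 83, 47 and 91 in LD (0.67 ± 0.45). mt-Th (tRNA-His) had 58, 22, 40, 22 and 83 reads in NL and 65, 76, 99, 36 and 82 in LD (0.76 ± 0.38). NL-7 held the fewest NL reads on each of the 5, tied with NL-4 for mt-Th, and NL-8, the deepest library, held the most on 4 of them.

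mt-Tt, the tRNA-Thr gene between mt-Cytb and mt-Tp, was called higher on very few reads. It had 1, 2, 0, 0 and 0 reads in NL and 3, 6, 2, 6 and 1 in LD, so the groups overlapped. With 3 reads put in every NL retina, the LD mean of 2.44 FPKM was 1.19 times the NL mean. This is no lower bound, since the LD counts of 1 to 6 reads carry counting error too. The fitted log2 fold change of 3.00 depends on the pseudocount and is no measure of size, and its adjusted p was 0.0253. Without NL-5, NL-7, NL-8, LD-4 or LD-7 the gene was not called (adjusted p of 0.0557 to 0.0618 by limma), and without NL-4 it was 1 gene past the thresholds of the study's text. Its sequence (MT 15289 to 15355) is shown whole, as the one tRNA gene past the threshold.
mt-Tt: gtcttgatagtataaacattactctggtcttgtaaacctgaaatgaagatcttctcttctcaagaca

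**Figure D5:**
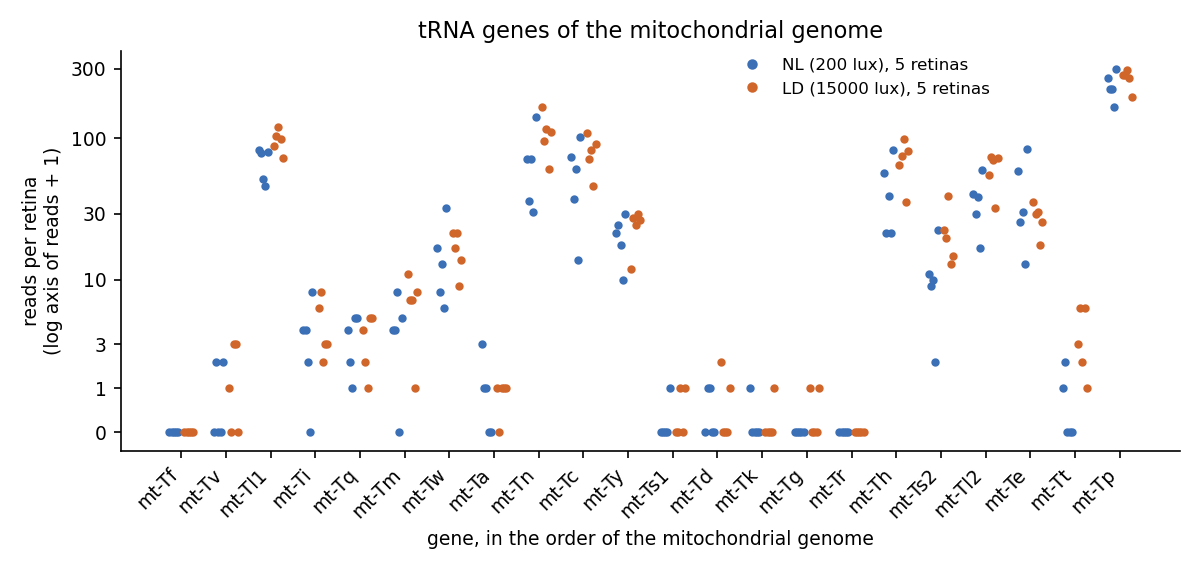
Reads per retina (log axis of reads + 1, labelled in reads) on the 22 tRNA genes in genome order, NL in blue and LD in orange. mt-Tp is highest at 165 to 299 reads, mt-Tt has 0 to 6 reads, and the genes from mt-Ts1 to mt-Tr, inside the copied stretch, have 0 to 2.

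Of 80 nuclear genes tested that transcribe, copy, process and translate the mitochondrial genome or regulate mitochondrial biogenesis, in 5 lists, 9 were called higher and 11 lower, beside 14.5% and 13.4% of all genes. These counts lie near those shares and are no result about the lists. Their median log2 fold change was -0.04. This split depends on the scaling, since without the factor per retina 19 were called higher and 5 lower.

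The lists are small, and their counts are given as a description beside those shares. Among 11 genes for mitochondrial transcription, 3 were called lower and 0 higher, all 3 of the MTERF family. Mterf2 went from 6.46 ± 0.963 to 4.89 ± 0.265 FPKM, Mterf1b from 2.89 ± 0.398 to 2.21 ± 0.262 and Mterf4 from 3.19 ± 0.119 to 2.51 ± 0.240 (SD, n = 5). Polrmt, the mitochondrial RNA polymerase, and Tfam, which packs the DNA and starts transcription, were chosen after their values were seen. Polrmt stood at 10.6 ± 0.576 FPKM in NL and 9.99 ± 0.873 in LD (adjusted p = 0.385), and Tfam at 5.66 ± 0.340 and 6.31 ± 0.365 (adjusted p = 0.0859). For the copying and upkeep of the DNA, 1 of 15 genes was called higher and 1 lower. Polg, the catalytic subunit of the mitochondrial DNA polymerase, rose by 0.25 on the log2 scale, whereas its partner subunit Polg2 went from 9.74 ± 0.353 to 3.60 ± 0.994 FPKM, a log2 fold change of -1.46.

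RNA cleavage, modification and decay had 6 of 32 genes called higher and 1 lower, where 14.5% and 13.4% were called among all genes. Pnpt1, the polynucleotide phosphorylase of mitochondria, rose from 10.6 ± 0.757 to 19.6 ± 2.79 FPKM (log2 fold change 0.87). Hsd17b10, a subunit of the enzyme that cuts the 5′ ends of tRNAs, rose from 9.60 ± 0.718 to 15.5 ± 4.12 FPKM, and Pus1, a pseudouridine synthase, from 3.92 ± 0.280 to 6.06 ± 0.587. Trnt1, which adds the CCA end to tRNAs, fell by 0.21 on the log2 scale. Of 12 translation factors, Mrrf was called higher (0.42) and Mtif2 lower (-0.36). Among 10 regulators of mitochondrial biogenesis, 5 were called lower and 1 higher. The coactivator Ppargc1a went from 8.11 ± 0.391 to 4.45 ± 0.611 FPKM, Ppargc1b from 16.2 ± 7.94 to 7.52 ± 2.19 and the corepressor Nrip1 from 9.20 ± 0.285 to 6.14 ± 0.430, while Pprc1 rose from 4.33 ± 0.222 to 7.17 ± 1.39.

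The nuclear genes for subunits of the respiratory chain and ATP synthase, collected by symbol after values were seen, gave 5 higher and 14 lower calls of 83 tested, beside 14.5% higher and 13.4% lower among all genes. The median of their log2 fold changes was -0.02. Of 5 RNAs tested from a list drawn up as RNAs without a long poly(A) tail, 3 were called lower, all of them histone genes. Whether these histone RNAs lacked such a tail in the retina was not measured, so their fall does not show how poly(A) selection worked. Rn7sk and Terc were not called. The summed level of the list was 132 to 182 FPKM in NL and 48.8 to 66.8 FPKM in LD. Within it, the mean of Hist1h1c alone went from 86.3 to 13.6 FPKM. The part of poly(A) selection in the shares of rRNA and tRNA reads was not tested.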

How the data were processed

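RNA of 10 retinas was sequenced. The labels name a TruSeq RNA kit, which selects polyadenylated RNA, and the submitters' processing notes name Bowtie2 2.0.6, TopHat2 2.0.9 and the build mm8, whereas the positions of all 37 genes in the table equal those of GRCm38 (GENCODE M21). The counting program and the handling of reads that match more than 1 place are not given in the sources used here. The authors deposited 1 table of FPKM values, in which the library size of each retina carries a factor. FPKM times gene length gave whole reads (within 0.01) for 100% of the values.

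Groups and names came from the labels. Differences were tested with limma 3.58.1 in R 4.3.3 on log2(FPKM + 0.1), with a trend of variance on level and Benjamini-Hochberg adjustment over every gene that reached 0.1 FPKM in 5 or more retinas. On this scale the change of a weakly expressed gene depends on the pseudocount and can be understated or, with counts of 0, overstated. That of mt-Tt was 1.24 with a pseudocount of 1 and 4.96 with 0.01. The test was checked on simulated data. Copies were found with BLAST against the annotated transcripts, so that unannotated stretches of the genome were not searched. Values in every retina are given for the protein-coding and rRNA genes and for the 5 tRNA genes with the most reads. From each nuclear list, up to 3 genes with the largest increase and 3 with the largest decrease were named, if they were called and averaged 1 FPKM or more in either group. The genes and lists were chosen with earlier results of these data known. Alternatives were other pseudocounts, filters, scalings and models, a replicate block, averaged pairs, a covariate for the presence of Xist, and each retina left out. Intervals and floors cover counting error only, and a floor of 3 reads was used for a count of 0 and, for mt-Tt, for every NL retina.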

Additional observations from a re-analysis of the deposited data

Results flagged for a closer look

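Each of 60 sets of 5 retinas (the FPKM of the named mitochondrial genes and of their chromosome 1 copies, the mitochondrial share and the depth, in NL or in LD) was searched for 1 retina far from the other 4, which chance gives in about 1 of 20 sets, here 3. The search found 1, the depth of NL-8. This library held 26832535 reads, and the other NL libraries 21343389 to 22257565. FPKM is divided by depth, and the share of mitochondrial reads in NL-8 (1.89%) was the lowest of the NL retinas, close to that of NL-1 (1.91%).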

How the results depend on the processing

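In the fit reported, 1 mitochondrial gene was called higher and 1 lower, and 9 nuclear genes of the 5 lists were called higher and 11 lower. The number of mitochondrial genes called lower was 4 with a pseudocount of 0.01, with at least 1 FPKM in 5 retinas, with limma-voom on the recovered reads and without the trend. It was 0 with a pseudocount of 1, without the factor per retina, with library sizes that leave out mitochondrial reads, with quantile normalization, without LD-1 and LD-7 (chosen after seeing the data) and with the 3 closest pairs averaged, and 3 with the presence of Xist (in 2 of 5 retinas of either group) as a covariate. The number called higher was 2 without the factor, with TPM, with library sizes without mitochondrial reads, without LD-1 and LD-7 and with the covariate, 4 with quantile normalization and 0 with the closest pairs averaged. Of the nuclear genes, 19 were called higher and 5 lower without the factor, 16 and 6 with TPM and 18 and 5 without mitochondrial reads in the library size, and 5 were called lower with the closest pairs averaged. These scalings raise the median of all genes to 0.11, 0.09 and 0.11, and the causes of the other shifts were not tested.

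Leaving out each retina in turn gave 0 to 2 mitochondrial genes higher, 0 to 3 lower and 0 to 1 past the study's thresholds, and 7 to 9 nuclear genes higher and 9 to 13 lower. The difference in the mitochondrial share ran from -0.200 to -0.0235 percentage points. As a share of summed FPKM it was -0.436, and -0.482 without the rRNA genes.

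Some genes changed sign, with mt-Nd6 the one among them that was called in the fit reported. mt-Nd1 and mt-Nd2 were at 0.039 and 0.041 on the log2 scale without the factor, 0.0091 and 0.011 with TPM, 0.037 and 0.039 without mitochondrial reads in the library size, 0.79 and 0.85 with quantile normalization (both called higher there, adjusted p of 0.00363 and 0.000246 by limma), and 0.065 and 0.074 without LD-1 and LD-7. Quantile normalization gave mt-Nd4 0.26, mt-Nd5 0.44 and mt-Nd6 0.25, and both mt-Co1 and mt-Cytb 0.00. It gives genes of equal rank the same value in every retina, so that the few highest genes are compared by rank alone. Without LD-1 and LD-7, mt-Atp6 was at -0.029, mt-Co3 at -0.074 and mt-Nd4l at -0.068, and with each retina left out in turn mt-Co3 ran from -0.021 (without LD-1) to 0.49.

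The replicate numbers 1, 4, 7 and 8 occur in both groups, but deviations of same-numbered retinas correlated at 0.0575, 0.0656, -0.0121 and -0.0893, so the numbers do not pair the retinas. On these 8 retinas the fit with a replicate block called 6 mitochondrial genes higher and 0 lower, and 4 nuclear genes higher and 5 lower. The same retinas with no block gave 0 and 0 mitochondrial genes and 5 nuclear genes lower.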
